A study of Mus musculus with 18 samples.

Results

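The 10 genes followed here across 18 mouse lymphomas are known to be switched on by p53 when cells arrest or meet stress: Cdkn1a, Ccng1, Mdm2, Sesn1, Sesn2, Btg2, Plk2, Gadd45a, Zmat3 and Rrm2b. They were taken as every probe of the deposited expression table that was annotated to one of these genes and to no other gene, which gave 19 probes of 41175 and 10 genes of the 18147 that could be tested. All 19 probes had enough values to be kept. The lymphomas came from mice lacking Atm, mTerc (the RNA component of telomerase) and p53 together (Atm-/-, mTerc-/-, p53-/-), and they keep the numbers 1 to 18 of their labels. Each was set, with a dye swap on 2-colour Agilent arrays, against one common reference, thymus RNA of healthy mice that were 3 weeks old and heterozygous for p53. The age of the lymphoma mice and the cell type and stage of the tumours were not in the labels.

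The tumours therefore had no p53 to drive these genes, while the reference thymus carried p53 from one allele. p53 is a transcription factor that is stabilised after DNA damage, telomere loss and other stress, and its targets stop the cell cycle, repair DNA, limit oxidative stress or kill the cell. The thymus is one of the tissues in which p53 acts most readily, and mice without p53 are known for thymic lymphoma. Most of the 10 genes are also controlled by other factors, and their transcripts are also found in cells without p53. The transcript of p53 itself was not analysed here.

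All values are log2 ratios of lymphoma over thymus, so that a positive value means more transcript in the lymphoma. The base of the deposited ratios was inferred as log10 and their direction is likely rather than stated. It rests on Atm, which was lower in 17 of 18 lymphomas (-0.65 ± 0.53, SD, n = 18), and on Terc, which was lower in 18 of 18 (-1.47 ± 0.58, SD, n = 18). A gene was called changed where limma gave its mean ratio an adjusted p under 0.05 over all 18147 genes. The reference counts as 1 control whose own spread is not in that test. The labels do not tie each lymphoma to a mouse of its own, so a p-value speaks only for the spread among these 18 samples, which may be technical in part. In bulk RNA, fewer cells of a type and less RNA per cell cannot be told apart, and a ratio gives no level within either tissue.

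Lymphomas 7, 12 and 14 stood apart from the rest. Their mean correlation with the other arrays was 0.17, 0.29 and 0.24, against 0.50 to 0.58 for the others. Lymphoma 12 also had the narrowest spread of ratios, with a median absolute deviation of 0.28. The 10 thymic epithelium genes fell in the lymphomas as a group, 10 of 10 passing the test with a median of -4.13, yet their mean was 0.53 in lymphoma 12 and -0.81 in lymphoma 7. Lymphoma 14 had the lowest T cell mean, -3.42 over 9 genes, and the highest fibroblast mean, 3.37 over 8 genes. The means of Cdkn1a, Gadd45a and Plk2 and the relations that passed are also given without these 3 lymphomas, and the 5 calls were the same genes without them. The macrophage markers split the lymphomas as well: their mean over 7 genes lay between -3.93 and -3.06 in lymphomas 1, 2, 3, 5, 15, 17 and 18 and between -0.84 and 2.25 in the other 11. Relations across lymphomas are therefore also given within these 7 and these 11.

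Promoter windows of the RefSeq mouse annotation (GRCm38.p6, 250 bases before to 50 after each transcript start) were available for 8 of the 10 genes, and 10 windows in all. Zmat3 and Rrm2b had none. A p53 site was searched on both strands as a pair of adjoining half-sites of the consensus, 20 bases with at most 2 mismatches and the central C and G of each half-site kept. Such a match stood in 107 of 32851 windows of the whole annotation (0.326%) and in 2 of the 10 member windows, those of Cdkn1a and Ccng1. The stretches are shown because these 2 p53 targets went opposite ways in the lymphomas, with the matched site in capitals and each sequence read in the direction of its gene.
Cdkn1a, chr17:29090908-29090967, plus strand, site 51 to 32 bases before the start, 1 mismatch: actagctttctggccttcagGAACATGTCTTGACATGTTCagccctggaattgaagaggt
Ccng1, chr11:40755442-40755501, minus strand, site 195 to 176 bases before the start, 1 mismatch: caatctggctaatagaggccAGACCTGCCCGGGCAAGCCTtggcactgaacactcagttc

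The cAMP response element TGACGTCA, a palindrome bound by factors of the CREB and ATF families, was also searched on both strands. It stood in 588 of 32851 windows (1.79%) and in 2 of the 10 member windows, those of Btg2 and Plk2. They are shown because these are 2 genes known to respond to mitogens and other acute signals as well as to p53.
Btg2, chr1:134079294-134079341, minus strand, element 166 to 159 bases before the start: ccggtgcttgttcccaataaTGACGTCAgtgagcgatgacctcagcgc
Plk2, chr13:110394962-110395009, plus strand, element 62 to 55 bases before the start: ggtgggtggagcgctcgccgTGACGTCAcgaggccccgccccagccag

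The match is a description of the letters in the window. Response elements of p53 outside these windows, as in introns, were not searched.

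Of the 10 genes, Cdkn1a rose in the lymphomas, and Ccng1, Btg2, Sesn1 and Gadd45a fell. The other 5, Sesn2, Zmat3, Rrm2b, Plk2 and Mdm2, did not pass the test. The 5 genes called made up 50% of the members, beside 57.8% of all genes (background). By direction, 10% of the members rose, beside 29.9% of all genes, and 40% fell, beside 27.9% of all genes. Were the likely direction of the ratios turned, the same shares would swap, with 40% higher beside 27.9% and 10% lower beside 29.9%, and the highest and lowest genes named below would change places. A mean change of at least 2-fold was called for Cdkn1a upwards, 1 gene of 10 beside 4.3% of all genes, and for Sesn1 and Gadd45a downwards, 2 genes of 10 beside 10.9%. Probe by probe, 3 of the 19 were called higher, beside 29.6% of all probes, and 10 were called lower, beside 25.9%. The median of the 10 mean ratios was -0.10, beside 0.046 over all genes. As a group, then, the 10 genes were called about as often as any others in this comparison.

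**Figure D1:**
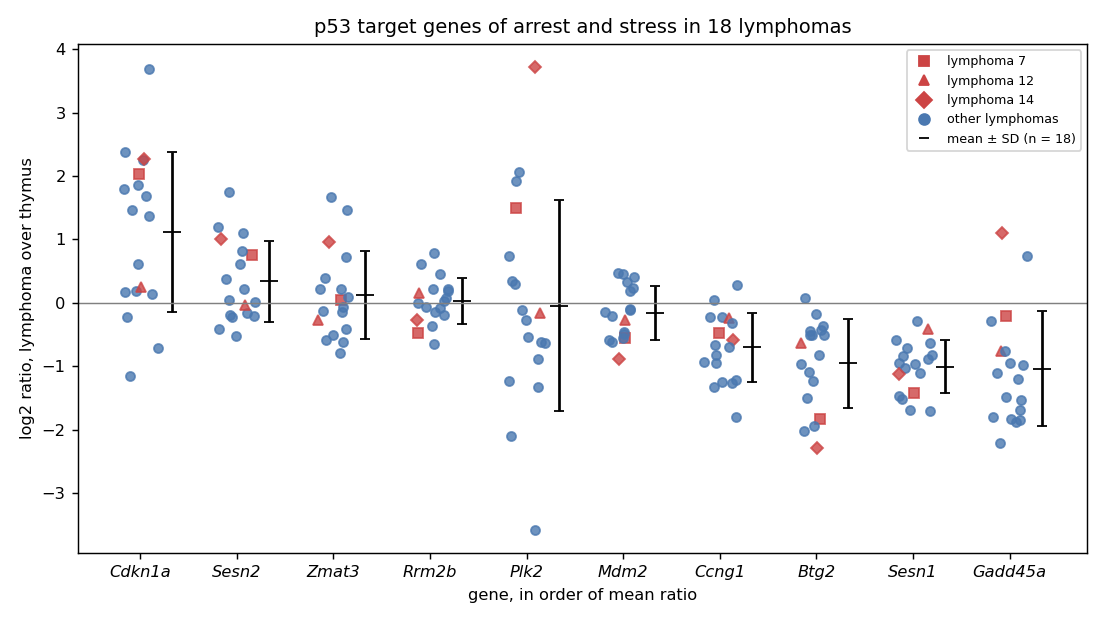
Log2 ratio of lymphoma over thymus (vertical axis) for each of the 10 genes (horizontal axis), 1 point per lymphoma, with the mean and SD over 18 lymphomas. Lymphomas 7, 12 and 14 are drawn in red with their own symbols. Every point of Sesn1 lies below 0, while those of Plk2 run from -3.57 to 3.72.

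Cdkn1a encodes p21, the inhibitor of cyclin-dependent kinases through which p53 holds cells in G1. Its ratio had a lowest value of -1.14 in lymphoma 2, a median of 1.41 and a highest value of 3.69 in lymphoma 15. It lay above thymus in 15 of 18 lymphomas, and only lymphomas 2, 8 and 16 fell below. The mean was 1.12 ± 1.26 (SD, n = 18), a 2.17-fold higher level in the lymphomas (limma, adjusted p = 0.00200). A rise of at least 2-fold was seen in 10 lymphomas and a fall of that size in 1. The largest ratio was 12.9-fold. Its SD exceeded that of 89.5% of genes, so the lymphomas differed widely in this transcript. Without lymphomas 7, 12 and 14 the mean was 1.03. The gene rests on 1 probe, while 7702 genes are means of more than 1 probe, and averaging can narrow their spread. The rank of its SD is therefore not a comparison of like with like.

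Gadd45a encodes a small stress protein that binds PCNA, p21 and Cdk1 and acts in the G2 checkpoint and in DNA repair. Its ratio ran from -2.21 in lymphoma 9, with a median of -1.15, to 1.11 in lymphoma 14. It was lower than thymus in 16 of 18 lymphomas, and lymphoma 3, at 0.73, was the other one above 0. The mean was -1.04 ± 0.91 (SD, n = 18), or 2.05-fold lower (limma, adjusted p = 2.17e-04). The mean without lymphomas 7, 12 and 14 was -1.25. This gene, too, rests on 1 probe.

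Btg2 encodes an antiproliferative protein of the Btg/Tob family, which recruits the deadenylase that shortens mRNA tails and which keeps T cells quiescent. Its ratio had a lowest value of -2.29 in lymphoma 14, a median of -0.72 and a highest value of 0.071 in lymphoma 18. It lay below thymus in 17 of 18 lymphomas. The mean was -0.95 ± 0.70 (SD, n = 18), 1.94-fold lower (limma, adjusted p = 3.95e-05). All 3 of its probes passed the test, with means of -0.85, -1.25 and -0.76, and they followed each other closely over the lymphomas (r of 0.92 to 0.97, n = 18). Lymphomas 3, 7, 9, 13 and 14 were the lowest, from -1.49 downwards.

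Ccng1 encodes cyclin G1, which brings the phosphatase PP2A to Mdm2 and so takes part in the feedback on p53. Its ratio ran from -1.79 in lymphoma 10, with a median of -0.67, to 0.29 in lymphoma 13. It was below thymus in 16 of 18 lymphomas, the exceptions being lymphomas 5 and 13. The mean was -0.70 ± 0.54 (SD, n = 18), 1.62-fold lower (limma, adjusted p = 9.64e-05). Its 2 probes each averaged -0.70 and correlated at r = 0.80 (n = 18).

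Mdm2 encodes the ubiquitin ligase that marks p53 for degradation and is itself a p53 target. Its ratio, the mean of 2 probes, stayed within 2-fold of thymus in 18 of 18 lymphomas. It ran from -0.88 in lymphoma 14, with a median of -0.17, to 0.47 in lymphoma 2. It averaged -0.16 ± 0.42 (SD, n = 18), and was not called (limma, adjusted p = 0.185). Its 2 probes did not move together (r = 0.063, n = 18), and in lymphoma 7 they lay 2.13 apart, at -1.63 and 0.51. Neither probe alone stayed within 2-fold throughout. Probe 37702 had the -1.63, and probe 42794 was 1.01 in lymphoma 13 and -1.03 in lymphoma 16.

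Plk2 encodes a polo-like kinase of the centrosome cycle that is induced by serum, neuronal activity and p53. It varied more than any other of the 10 genes, from -3.57 in lymphoma 17, with a median of -0.21, to 3.72 in lymphoma 14, a 156-fold span. Its SD exceeded that of 95.7% of genes. Lymphomas 7, 10, 14 and 15 were at least 2-fold above thymus and lymphomas 1, 3, 5 and 17 at least 2-fold below. The mean was therefore near 0, at -0.045 ± 1.67 (SD, n = 18), and was not called (limma, adjusted p = 0.922). It was -0.39 without lymphomas 7, 12 and 14. The gene has 1 probe, so the limit given for the SD rank of Cdkn1a holds here too.

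The sestrins Sesn1 and Sesn2 limit oxidative stress and restrain the growth kinase complex mTORC1. They parted here. Sesn1 fell in every lymphoma, from -1.70 in lymphoma 8, with a median of -0.96, to -0.28 in lymphoma 18. Its mean was -1.01 ± 0.42 (SD, n = 18), 2.01-fold lower (limma, adjusted p = 1.06e-07). Over the whole table, 3.69% of genes lay below thymus in all 18 lymphomas. The 3 Sesn1 probes all passed the test, with means of -1.05, -1.07 and -0.90.

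Sesn2, which Atf4 also switches on when amino acids run short, had a lowest ratio of -0.53 in lymphoma 9, a median of 0.13 and a highest ratio of 1.75 in lymphoma 5. Its mean of 0.34 ± 0.64 (SD, n = 18) did not pass (limma, adjusted p = 0.0536). The call depends on the probe. Probe 3371 is annotated to a RefSeq transcript and probe 42548 to a record outside RefSeq. Probe 3371 averaged 0.62 ± 0.41 and was above thymus in 17 of 18 lymphomas (limma over 37295 probes, adjusted p = 3.44e-05), beside 55.5% of probes called. Probe 42548 averaged 0.063 ± 1.05, ran from -1.95 in lymphoma 9 to 2.0 in lymphoma 5, and was not called (adjusted p = 0.835). Leaving out lymphoma 6, 9, 10, 11, 13 or 16 also brought the gene mean past the threshold, with adjusted p between 0.0302 and 0.0457.

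Rrm2b encodes p53R2, the ribonucleotide reductase subunit that supplies deoxynucleotides for repair outside S phase. Its mean of 0.028 ± 0.36 (SD, n = 18; limma, adjusted p = 0.811) joined 2 probes that went opposite ways. Probe 17196 averaged 0.41 ± 0.32 and was higher in 16 of 18 lymphomas (adjusted p = 4.10e-04 over all probes). Probe 9198 averaged -0.35 ± 0.54 and was lower in 13 of 18 (adjusted p = 0.0229). The 2 probes had the same sign in only 7 of 18 lymphomas, so no direction is given for the gene. Probe 9198 is annotated to a RefSeq transcript and probe 17196 to a record outside RefSeq.

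Zmat3 encodes a zinc finger RNA-binding protein that p53 induces and that steers splicing and mRNA decay. It was above thymus in 9 lymphomas and below in 9, from -0.79 in lymphoma 6, with a median of -0.0072, to 1.67 in lymphoma 9. It averaged 0.13 ± 0.70 (SD, n = 18) and was not called (limma, adjusted p = 0.511). Lymphoma 13, at 1.46, stood next to lymphoma 9, and there the gene rests on 1 probe, because probe 9296 had values in only 14 lymphomas. The 2 probes shared little (r = 0.094, n = 14), and probe 36380 alone reached 3.03 in lymphoma 9. Probe 36380 is annotated to a RefSeq transcript and probe 9296 to a record outside RefSeq.

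**Figure D2:**
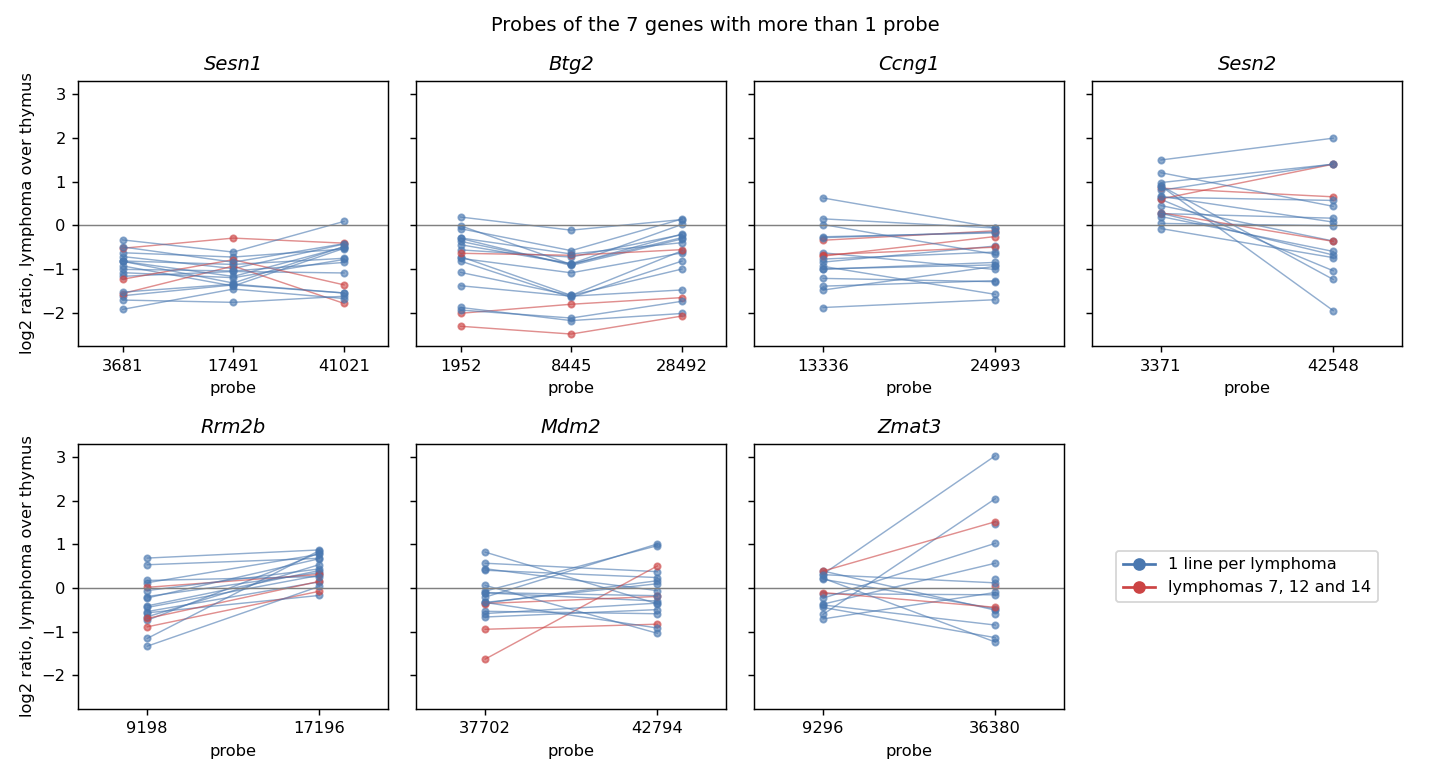
Log2 ratio of lymphoma over thymus (vertical axis) by probe (horizontal axis) for the 7 genes with more than 1 probe, with a line joining the values of the same lymphoma and lymphomas 7, 12 and 14 in red. The probes of Sesn1, Btg2 and Ccng1 lie mostly below 0, although the Btg2 means differ (-0.85, -1.25 and -0.76), while most lines of Rrm2b climb from probe 9198 (mean -0.35) to probe 17196 (mean 0.41), and those of Sesn2 fan out at probe 42548.

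Seen lymphoma by lymphoma, more of the 10 genes lay below thymus than above it in 15 of 18 tumours. Lymphomas 5 and 18 had more above, with 6 and 7 genes, and lymphoma 14 had 5 on each side. Cdkn1a was the highest of the 10 ratios in 11 lymphomas, and Gadd45a the lowest in 9, and each of them rests on 1 probe. Lymphoma 14 had the most genes at least 2-fold higher, with 4. They were Plk2, Cdkn1a, Gadd45a and Sesn2, all measured in the tumour with the highest fibroblast and macrophage means. Lymphoma 12 had no gene of the 10 past 2-fold in either direction, and its ratios were the narrowest of all arrays. No lymphoma had all 10 genes on one side. The share of all genes below thymus in each lymphoma is not set beside these counts, but array medians lay between -0.038 and 0.12. Every lymphoma was set against the same reference, so the counts are not separate observations.

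**Figure D3:**
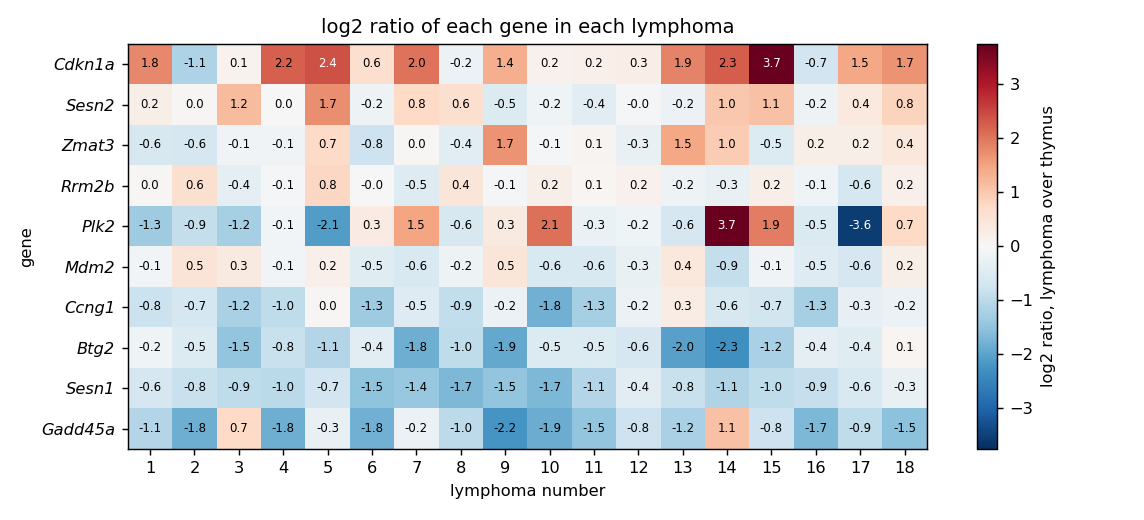
Log2 ratio of lymphoma over thymus for the 10 genes (rows) in lymphomas 1 to 18 (columns), with the value in each cell and a colour scale centred on 0. The row of Sesn1 is negative throughout, and the row of Plk2 holds both 3.72 in lymphoma 14 and -3.57 in lymphoma 17.

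For 7 of the 10 genes a close relative was picked, and the ratio of each gene was set against that of its relative within each lymphoma (sign-flip permutation test on the 18 differences, two-sided, adjusted over 7 pairs). Sesn1 was lower than Sesn2 in 18 of 18 lymphomas, by a mean difference of -1.35 ± 0.68 in log2 ratio (SD, n = 18; adjusted p = 7e-05). That count used the mean of the 2 Sesn2 probes: Sesn2 lay above Sesn1 in 18 of 18 by probe 3371 and in 16 of 18 by probe 42548. Mdm2 was higher than Mdm4, its partner in holding p53 down, in 18 of 18, by 0.69 ± 0.49 (adjusted p = 7e-05). By single Mdm2 probes it was higher in 17 (probe 37702) and 15 (probe 42794) of 18. Mdm4 itself fell, with a ratio of -0.85 ± 0.41 (SD, n = 18; limma, adjusted p = 5.84e-07). Ccng1 was higher than Ccng2, the other G-type cyclin and a target of FoxO factors, in 17 of 18, by 0.96 ± 0.77 (adjusted p = 9.33e-05). Both cyclins were below thymus, Ccng2 at -1.66 ± 0.62 (SD, n = 18).

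Gadd45a was higher than Gadd45b, a relative induced by inflammatory and TGF-beta signals, in 14 of 18 lymphomas, by 1.09 ± 1.29 (SD, n = 18; permutation test, adjusted p = 0.00157). Gadd45b had a ratio of -2.13 ± 1.12, the largest fall among the relatives. The other 3 differences did not pass: 0.53 ± 1.02 for Btg2 minus Btg1 (adjusted p = 0.0598), 0.35 ± 1.05 for Plk2 minus Plk3 (adjusted p = 0.212) and -0.16 ± 0.61 for Rrm2b minus Rrm2, the S phase subunit (adjusted p = 0.287). Without lymphomas 7, 12 and 14 the difference between Btg2 and Btg1 was 0.75 and passed (adjusted p = 0.0120), as it did without lymphoma 5, 7, 9 or 14 alone, at 0.60 to 0.64. For Rrm2b the sign of the difference turned with the probe, to 0.22, where 1 probe per gene was used.

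**Figure D4:**
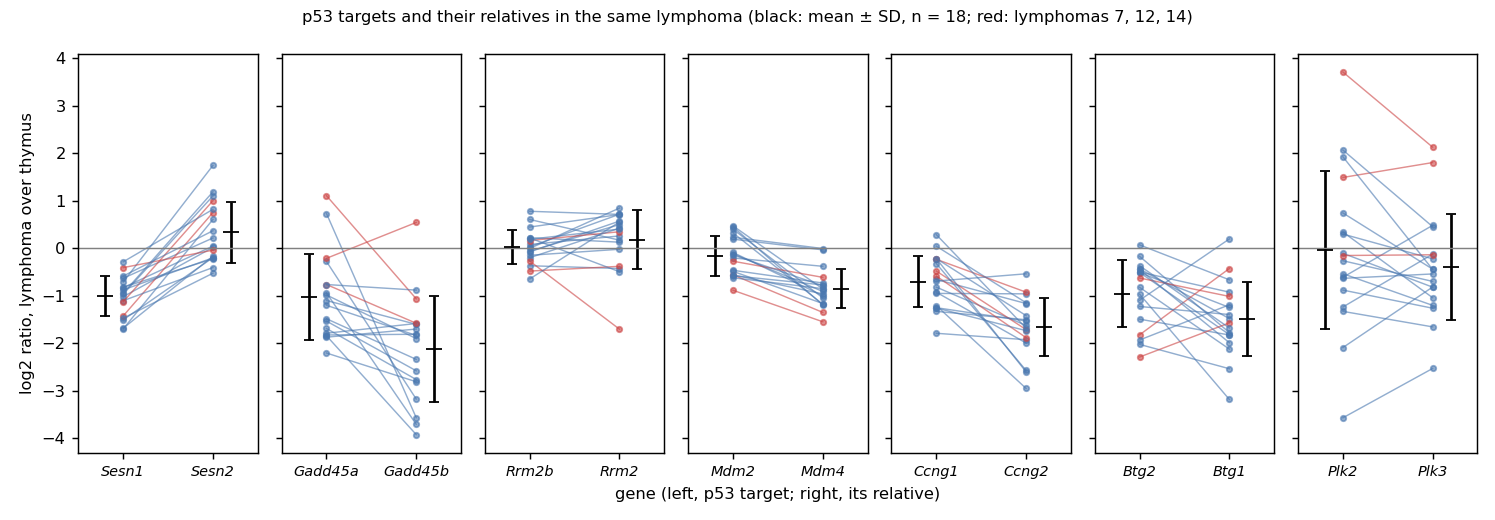
Log2 ratio of lymphoma over thymus (vertical axis) for 7 genes, each on the left of its pair, and a close relative on the right, with a line joining the values of the same lymphoma. All 18 lines of the pair Sesn1 and Sesn2 rise to the right, and all 18 of the pair Mdm2 and Mdm4 fall.

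Of the 16 relatives and partners of the 10 genes, 2 rose, 8 fell and 6 were not called, with a median of -0.43. Besides Gadd45b, Ccng2 and Mdm4, those that fell were Btg1 (-1.48 ± 0.78) and Tob1 (-1.27 ± 0.48), antiproliferative relatives of Btg2, Cdkn1b (-0.58 ± 0.31), which encodes the cell cycle inhibitor p27, Gadd45g (-0.57 ± 1.06) and Sesn3 (-0.37 ± 0.41), all SD, n = 18. The 2 that rose were Btg3 (0.55 ± 0.72) and the mitotic kinase Plk1 (0.53 ± 0.19). Tob2, Plk3, Plk4, Cdkn1c, Rrm1 and Rrm2 were not called, with means between -0.48 and 0.19. Cdkn1a was thus called higher, above thymus in 15 of 18 lymphomas. Its relative Cdkn1b was called lower, below thymus in 18 of 18, and the difference between the 2 genes was not tested.

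Among other p53 targets of arrest, repair and metabolism, 6 of 19 rose, 8 fell and 5 were not called, with a median of -0.19. Rprm, a G2 arrest factor, had a ratio of -2.46 ± 1.18 and Trp53inp1, a stress protein that promotes p53 phosphorylation, one of -1.52 ± 1.08 (SD, n = 18 each). Ptprv, a phosphatase gene of p53-dependent arrest in mice, rose with a ratio of 1.11 ± 0.62, and Gtse1, which carries p53 out of the nucleus in G2, with 0.84 ± 0.42.

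Among the p53 targets of cell death, 5 of 15 rose, 7 fell and 3 were not called, with a median of -0.048. Fas, the death receptor, had a ratio of -2.89 ± 0.96 and Perp, a membrane protein of desmosomes and apoptosis, -4.04 ± 2.17 (SD, n = 18 each). Dram1, an inducer of autophagy, had -1.24 ± 0.94, and Pidd1, a scaffold of caspase-2 activation, 0.80 ± 0.53. The ratios in both lists of p53 targets thus ran in both directions.

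Among the regulators of p53, 4 of 16 rose, 6 fell and 6 were not called, with a median of -0.080. Trim28, a corepressor that works with Mdm2, rose with 1.06 ± 0.52, and Rchy1 (-0.73 ± 0.34), another p53 ubiquitin ligase, and Sirt1 (-0.63 ± 0.36), a p53 deacetylase, fell (SD, n = 18 each). Cdkn2a, which encodes the Mdm2 inhibitor p19Arf and the cell cycle inhibitor p16, rose with 2.67 ± 2.10 in 15 of 18 lymphomas (limma, adjusted p = 5.60e-05). It was picked out after its value was seen.

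p21 is known to repress cell cycle genes through the DREAM complex. Of 18 such genes, 9 rose, 4 fell and 5 were not called, with a median of 0.35. Mybl2 (1.40 ± 0.47) and E2f1 (0.97 ± 0.52), transcription factors of S phase entry, the mitotic kinase Aurka (0.79 ± 0.31) and the kinesin Kif2c (0.77 ± 0.40) were among those that rose (SD, n = 18 each). Over the 18 lymphomas, the mean of these 18 genes correlated with Cdkn1a at r = -0.12 (rho = -0.018, n = 18; permutation p = 0.642, adjusted p = 0.881). Without lymphomas 7, 12 and 14 that r was 0.20.

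Relations between the 10 genes over the lymphomas were computed for 45 pairs, with permutation tests of 100000 resamples and adjustment over the pairs. One pair passed, Sesn2 with Gadd45a, at r = 0.74 (n = 18; permutation p = 0.00055, adjusted p = 0.0247) and rho = 0.71 (permutation p = 0.00154, adjusted p = 0.0693). The r was 0.70 without lymphomas 3 and 5, the 2 farthest from the median of Sesn2, and 0.79 without lymphomas 7, 12 and 14. Lymphomas 3 and 14, the 2 with Gadd45a above thymus, had Sesn2 at 1.19 and 1.0. Within the 7 lymphomas with low macrophage means r was 0.68, and within the other 11 it was 0.86. The Sesn2 value here is the mean of 2 probes that correlated at only r = 0.43 (n = 18). Probe 42548 had the wider spread, with an SD of 1.05 beside 0.41 for probe 3371. The pair was not tested probe by probe. Cdkn1a formed no pair that passed with any of the other 9 genes.

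Each gene was also set against the mean ratio of each of 8 gene lists and 9 lists of cell type markers, 170 relations in all, adjusted together. By Pearson's r 9 passed, and they involved Sesn2, Gadd45a, Zmat3, Plk2 and Btg2. By Spearman's rho 4 passed, of which 3 (Sesn2 with the Atf4 list, Btg2 with cortical thymocyte markers and Zmat3 with p53 regulators) were among the 9, and the other was Sesn1 with fibroblast markers. None of the 9 changed sign within the 7 lymphomas with low macrophage means or within the other 11, which include lymphomas 7, 12 and 14. The 9 were picked by their r over these same lymphomas, so a kept sign is not separate support.

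Sesn2 varied with the list of Atf4 and the amino acid response, at r = 0.81 (n = 18; permutation p = 6e-05, adjusted p = 0.0051) and rho = 0.77 (permutation p = 0.00028, adjusted p = 0.0238). The r was 0.79 without lymphomas 3 and 5 and 0.81 without lymphomas 7, 12 and 14. It was 0.71 within the 7 lymphomas with low macrophage means and 0.84 within the other 11. It came from probe 42548, which is annotated outside RefSeq, with r = 0.86, more than from the RefSeq probe 3371, with r = 0.34. In that list 6 of 10 genes rose, 2 fell and 2 were not called, with a median of 0.71. They included Chac1 (2.99 ± 1.76), which degrades glutathione, Asns (2.84 ± 1.54), asparagine synthetase, Psat1 (1.24 ± 0.59) of serine synthesis and Atf4 itself (0.90 ± 0.59), all SD, n = 18. Lymphoma 15 had the highest mean of the list, 2.16, and Sesn2 at 1.10.

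Gadd45a followed the same list at r = 0.75 (n = 18; permutation p = 0.00071, adjusted p = 0.0181), with rho = 0.62 (adjusted p = 0.109). The r was 0.55 without lymphomas 3 and 14, 0.79 without lymphomas 7, 12 and 14, and 0.70 and 0.81 within the 7 and the 11. Gadd45a ran against the T cell markers at r = -0.81 (permutation p = 9e-05, adjusted p = 0.0051; rho = -0.64, adjusted p = 0.0986). That relation had r = -0.53 without lymphomas 3 and 14, whose T cell means were -1.61 and -3.42, r = -0.64 without lymphomas 7, 12 and 14, and r = -0.75 and -0.93 within the 7 and the 11. The part of the T cell content in the Gadd45a result was not tested.

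Plk2 followed the immediate early genes, the first transcripts after mitogens and stress, at r = 0.77 (n = 18; permutation p = 0.00013, adjusted p = 0.0051; rho = 0.64, adjusted p = 0.0986). The r was 0.62 without lymphomas 14 and 17, 0.74 without lymphomas 7, 12 and 14, and 0.74 within the 7 as well as within the 11. Of these 15 genes 8 fell and 7 were not called, with a median of -0.97. Egr2 (-4.14 ± 1.31), Nr4a1 (-2.79 ± 1.35), Junb (-1.23 ± 0.67) and Zfp36 (-1.06 ± 0.56) had the smallest adjusted p (SD, n = 18 each). Plk2 also ran against the DREAM list, at r = -0.78 (permutation p = 0.00015, adjusted p = 0.0051; rho = -0.70, adjusted p = 0.0663), which was -0.56 without lymphomas 14 and 17, -0.66 without lymphomas 7, 12 and 14, -0.69 within the 7 and -0.86 within the 11.

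Fibroblast markers moved with Plk2 as well, at r = 0.71 (n = 18; permutation p = 0.00085, adjusted p = 0.0181; rho = 0.60, adjusted p = 0.119), and the r was 0.49 without lymphomas 14 and 17, 0.65 without lymphomas 7, 12 and 14, 0.76 within the 7 and 0.58 within the 11. The fibroblast list, with 2 of 8 genes higher and 3 lower, had means between -2.56 in lymphoma 5 and 3.37 in lymphoma 14. Thy1 (-1.32 ± 0.60, SD, n = 18), among the 3 lower genes, is also in the T cell list, so these lists are not fully separate. Lymphoma 17, with the lowest Plk2, had a fibroblast mean of -2.25. Plk2 also had r = 0.64 with endothelial markers and 0.52 with macrophage markers (n = 18 each), which did not pass. The part of fibroblast content in the spread of Plk2 was not tested.

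Sesn1 ran against the fibroblast markers by rank, at rho = -0.73 (n = 18; permutation p = 0.00078, adjusted p = 0.0353), while Pearson's r of -0.58 did not pass (permutation p = 0.0121, adjusted p = 0.147). The r was -0.51 without lymphomas 8 and 10, the 2 farthest from the median of Sesn1, and -0.80 without lymphomas 7, 12 and 14. It was -0.56 within the 7 and -0.18 within the 11. By probe, r was -0.62 for probe 3681, -0.65 for probe 41021 and only -0.23 for probe 17491 (n = 18 each). In the same order, r was -0.57, -0.62 and -0.15 with macrophage markers and -0.55, -0.66 and -0.0060 with endothelial markers. The pattern is therefore not particular to the fibroblast list. The part of fibroblast content in the lower Sesn1 was not tested.

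Btg2 followed the markers of cortical thymocytes, the immature T cells that fill the young thymus, at r = 0.72 (n = 18; permutation p = 0.00083, adjusted p = 0.0181; rho = 0.73, adjusted p = 0.0353). It was 0.73 without lymphomas 13 and 14, and 0.55 without lymphomas 7, 12 and 14, and 0.91 and 0.64 within the 7 and the 11. Of these markers 9 of 10 fell, with a median of -1.88, and their mean ran from -3.95 in lymphoma 14 to -0.66 in lymphoma 12. Btg2 also followed the T cell list, at r = 0.66 (permutation p = 0.00165, adjusted p = 0.0312; rho = 0.54, adjusted p = 0.215), and there r was 0.47 without lymphomas 13 and 14, 0.46 without lymphomas 7, 12 and 14, 0.49 within the 7 and 0.70 within the 11. The part of thymocyte content in the lower Btg2 was not tested.

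Zmat3 ran against the p53 regulators, at r = -0.78 (n = 18; permutation p = 0.00012, adjusted p = 0.0051) and rho = -0.79 (permutation p = 0.00015, adjusted p = 0.0238). The r was -0.78 without lymphomas 9 and 13, the 2 with the highest Zmat3, and -0.82 without lymphomas 7, 12 and 14. It was -0.73 within the 7 and -0.78 within the 11. The list mean itself moved little, between -0.29 in lymphoma 14 and 0.31 in lymphoma 2. Among its 16 genes Cdkn2a had by far the widest spread, with an SD of 2.10, and Usp7 the next, with 0.70. The part of Cdkn2a in this relation was not tested. By probe, r was -0.67 for probe 36380 (n = 18) and -0.40 for probe 9296 (n = 14).

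**Figure D5:**
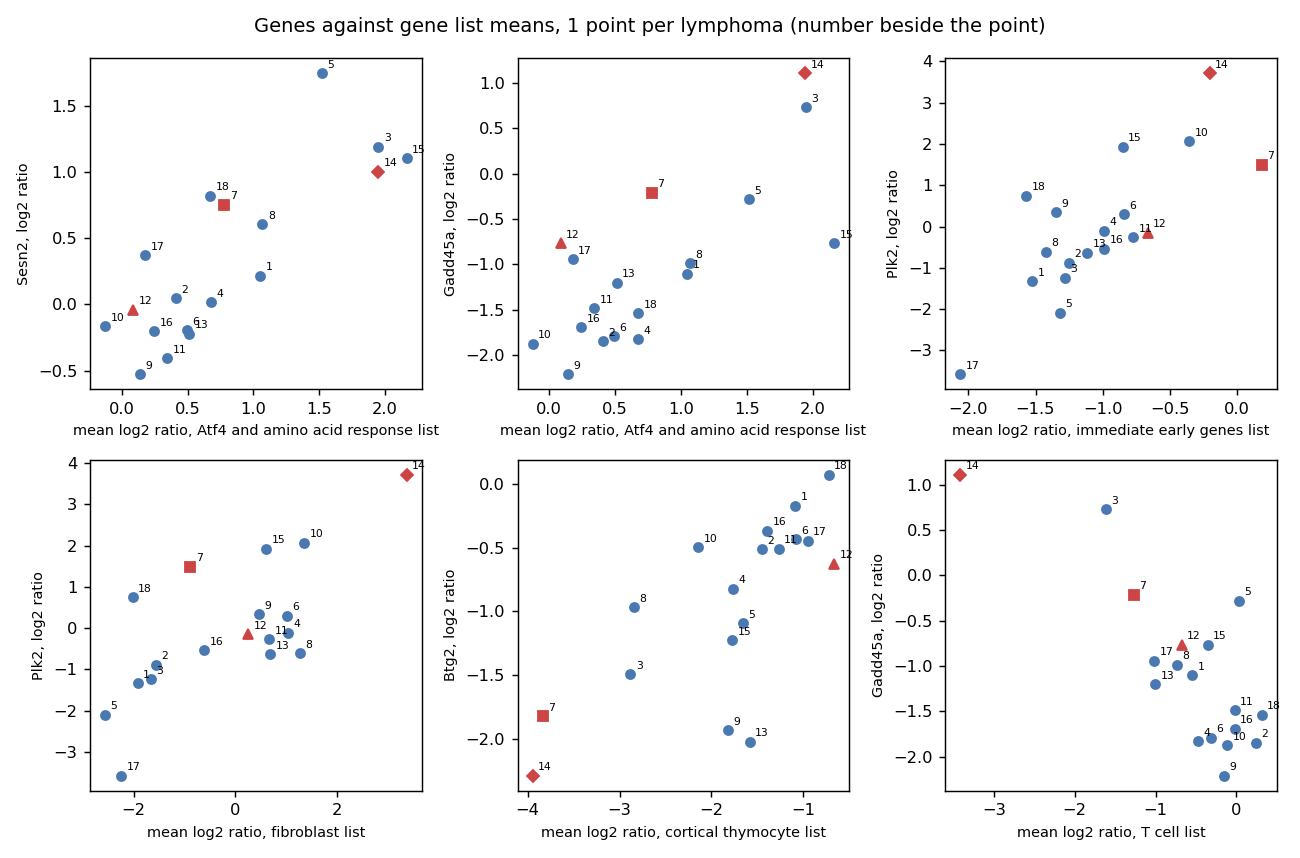
Log2 ratios of Sesn2, Gadd45a, Plk2 and Btg2 (vertical axes) against the mean log2 ratio of a gene or marker list (horizontal axes), 1 numbered point per lymphoma, with lymphomas 7, 12 and 14 in red. Sesn2 against the Atf4 list has r = 0.81, and lymphoma 14 lies at the far end of the panels of Plk2 with fibroblast markers and Gadd45a with T cell markers.

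FoxO factors share several antiproliferative targets with p53. Of 7 FoxO targets measured, 1 rose, 4 fell and 2 were not called, with a median of -1.02. Bcl6, a transcriptional repressor that acts in germinal centre B cells, had -3.46 ± 1.02, and S1pr1, the receptor for exit from the thymus, -1.80 ± 1.32. Pik3ip1, an inhibitor of PI3 kinase, had -1.05 ± 0.72, and Cited2, a transcriptional coregulator, 0.77 ± 0.52 (SD, n = 18 for all 4). None of the 10 members had a relation with the mean of this list that passed.

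Markers of other cells moved in both directions. Neutrophil markers fell in 7 of 7 genes, and macrophage and endothelial markers in 2 of 7 each, with the rest not called. B cell markers rose in 2 of 6 genes and fell in 3, and erythroid markers rose in 1 of 4 and fell in 2. T cell markers rose in 1 of 9 and fell in 5. The lowest macrophage mean was that of lymphoma 2 and the highest that of lymphoma 14. No relation of the 10 genes with the lists of thymic epithelium, macrophages, endothelium, B cells, erythroid cells or neutrophils passed the adjustment.

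For each of the 10 genes, the 3 genes whose ratios were most alike over the 18 lymphomas were sought among 17000 others with a value in every lymphoma. These r values are the highest of many and are given as a description. For Sesn2 they were Got1 (r = 0.88), Trib3 (0.88) and Ppp1r15a (0.85), and Trib3 and Ppp1r15a belong to the Atf4 list. For Plk2 they were Mvp (0.89), the chemokine gene Ccl2 (0.88) and S100a6 (0.87). Cdkn1a was most like Dapk2 (0.79), Galr1 (0.77) and Ppm1j (0.74).

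The other genes most like Gadd45a were Adgrl3 (r = 0.86), Map1b (0.84) and Flvcr2 (0.81). Btg2 was most like Rabgap1l (0.87), Zscan30 (0.83) and Hnrnpu (0.83), and Sesn1 like Use1 (0.86), Tax1bp1 (0.84) and Mapk9 (0.83). Ccng1 was closest to Phf21b, Olfr63 and A330040F15Rik (0.79 each), and Mdm2 to Tcstv3 (0.86), Csl (0.84) and Dnaaf6b (0.84). Zmat3 was closest to Fcer1a (0.88), Oxct2a (0.85) and Prss33 (0.85), and Rrm2b to Gm16794 (0.86), Tacc1 (0.84) and Rictor (0.83). No member was among the 3 closest genes of another member.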

How the data were processed

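Total RNA of 18 lymphomas was measured against one thymus reference on 2-colour Agilent arrays. Trizol extraction, DNase digestion and column purification preceded labelling, per the labels' protocols. The labelling protocol names arrays for genome hybridisation, but the labelled molecule is RNA. The deposited table holds 1 combined ratio per probe and lymphoma, taken as log10 and converted to log2. The authors' normalization and their way of combining the dye swap were not given in the sources used here. Array medians lay between -0.038 and 0.12 on the log2 scale, and no centring was added. The signal of single spots was not used, so the number of arrays limits precision.

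Of 41175 probes, 31700 named 1 gene in the platform annotation, which can be old. Probes needed values in 14 of 18 lymphomas (37295 did), and a gene is the mean of its probes (18147 genes). Each mean was tested against 0 by limma 3.58.1 (R 4.3.3; lmFit on an intercept alone, then eBayes), at 0.05 after Benjamini-Hochberg adjustment across the 18147 genes or the 37295 probes. The fit was tested on simulated data. Differences between relatives and correlations used two-sided permutation tests of 100000 resamples, whose smallest possible p is 1e-05. Promoter sequences are from RefSeq (GRCm38.p6).

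The members and lists were chosen with earlier results of these data known. Named were all members, all relatives, up to 4 genes per list in order of adjusted p, and the 3 genes most alike to each member. Alternatives were other filters, probe summaries, normalizations, variance models, a base of 2, a sign test and each lymphoma left out. Leaving out lymphomas 7, 12 and 14 and the relations with list means, within sets of lymphomas split by macrophage markers too, were chosen after seeing the data.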

Additional observations from a re-analysis of the deposited data

How the results depend on the processing

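The members called lower numbered 4 (Ccng1, Btg2, Sesn1 and Gadd45a) under each alternative run, and Cdkn1a was called higher under each. The number called higher was 1, but 3 with 1 probe per gene, where Sesn2 (0.62, adjusted p = 2.74e-05) and Rrm2b (0.41, adjusted p = 3.05e-04) passed in limma as well. That run kept the probe with the most values and, among equals, the smallest SD, a rule that favours small p-values. It thus repeated the results of probes 3371 and 17196. It left out Rrm2b probe 9198, which was called lower (mean -0.35). The number called higher ran from 1 to 2 when single lymphomas were left out. Rrm2b was -0.0113 with arrays centred on their median (adjusted p = 0.924) and ran from -0.0166 to 0.0672 when single lymphomas were left out. Plk2 ran from -0.27 to 0.16 in the same way, turning positive without lymphoma 1, 2, 3, 5 or 17. Rrm2b minus Rrm2 was 0.22 with 1 probe per gene (permutation test, adjusted p = 0.139). Btg2 minus Btg1 was 0.75 without lymphomas 7, 12 and 14 (adjusted p = 0.0120) and ran from 0.43 to 0.64 with single lymphomas left out. The cause of these changes was not tested. Genes called over the whole table ran from 8058 by the sign test to 11305 with array weights, against 10480, and from 10080 to 10912 with single lymphomas left out. If the deposited values were log2, the calls by adjusted p would stand, but Cdkn1a, Sesn1 and Gadd45a would be 0.34, -0.30 and -0.31, so none of the 10 would be called at 2-fold and the counts of lymphomas past 2-fold would change. No paired analysis was possible because the lymphomas form 1 group set against a common reference.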
